A study of Homo sapiens with 9 samples.

Results

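The ZBTB genes encode transcription factors with a BTB domain at the amino end and zinc fingers at the carboxyl end, and their mRNAs were compared between RNA recovered with CNOT7 and input RNA of HEK293T cells. The group was taken by symbol: protein-coding genes of the count table whose symbol starts with ZBTB and a digit. This gave 42 members among 30956 genes of all kinds, of which 16232 were protein-coding. Another 7 genes with such a symbol were not protein-coding and were left out. One of the 42, ZBTB8OS, carries the symbol by its position beside ZBTB8A and encodes an archease, a cofactor of the tRNA ligase, with no zinc finger, so 41 members are BTB zinc finger genes.

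HEK293T is a human embryonic kidney line. CNOT7 is a nuclease subunit of CCR4-NOT, the complex that shortens the poly(A) tails of mRNAs. The RIP group (RNA immunoprecipitation, 3 libraries) held RNA recovered with a V5-tagged CNOT7 that carries the D40A substitution, which impairs catalysis. The input RNA group held 6 libraries, 3 of cells kept with doxycycline (3 µg/mL, 24 h) and 3 of untreated cells; all 9 were labelled as cytoplasmic RNA of HEK293T. The table had columns for 3 of the 6 inputs, whose names fit both kinds of input, so they were used as libraries of the input RNA group without regard to doxycycline. The source of the RIP cells and the independence of the cultures are not stated in the labels, so the p-values measure only the spread between these libraries. An immunoprecipitate of untagged cells was not analysed here, and recovery independent of CNOT7 was therefore not subtracted.

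BTB zinc finger proteins bind DNA through their fingers, while the BTB domain pairs them with each other and recruits corepressors such as NCOR and SMRT with histone deacetylases, or the ubiquitin ligase scaffold CUL3. Most of the well-studied members repress transcription, and several decide lineages of blood and immune cells. The amount of such a regulator depends in part on how long its mRNA lasts, and CCR4-NOT acts on that step for many mRNAs.

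The libraries were of similar depth, with 37140622 to 40764899 reads in genes for RIP and 37290120 to 38918356 for the input columns, and 3 reads stood for 0.0736 to 0.0808 CPM (reads scaled to a common library total). RNA encoded by mitochondria made up 0.93% to 1.12% of reads in RIP and 18.6% to 26.6% in input. RIP 2 stood apart from the other two RIP libraries, with 14786 genes at 0 against 6720 and 6398. The bait's own mRNA, CNOT7, was at normalized counts (reads divided by the size factor of the library) of 79593, 81128 and 100226 in RIP and 24412, 24627 and 25361 in input. The 5 HEK293T markers were present in every input column, with a lowest value of 265. Of 8 markers of other cells, 6 had a row, their sum ran from 416 to 608 in input and from 379 to 610 in RIP, and ALB, CDH5 and DCN were at 0 in all input columns.

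Nearly all ZBTB mRNAs were more abundant in the CNOT7 immunoprecipitate than in input. Of 41 members tested with limma on log2(normalized count + 1), 38 were enriched at an adjusted p under 0.05, 1 was depleted and 2 did not pass. The median log2 fold of RIP over input was 1.22, with quartiles at 0.85 and 1.51 and a range from -0.65 to 2.07. Among all 16765 genes tested, 22.4% were enriched and 21.2% depleted, and the median log2 fold was -0.04. Among the members, 29 were enriched at least 2-fold, against 11.4% of all genes tested.

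The same 38 enriched members had every RIP library above every input column, an arrangement found in 27.4% of all genes tested. The only member with every RIP library below every input column was ZBTB8OS, and the 2 with overlapping groups were ZBTB42 and ZBTB44. Without RIP 2, 39 members were enriched and 1 depleted, with a median log2 fold of 1.16. Calls over the whole table also rose in that fit, to 3824 genes enriched and 3719 depleted from 3758 and 3550. In the authors' deposited table, computed with DESeq2 from the same libraries, the call was the same for all 41 members, against 20.6% of its genes called enriched, and the largest difference between its log2 fold and the limma value was 0.09.

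These folds are relative to the authors' size factors. Scaled by total reads instead, which counts the mitochondrial reads of the inputs, the median of all genes moved from -0.04 to 0.45, and 6155 genes were enriched and 1655 depleted in place of 3758 and 3550. The enriched share of all calls was then 78.8% in place of 51.4%. The ZBTB median became 1.71, with 40 members enriched and 0 depleted at an adjusted p under 0.05 in limma. Taken relative to the median of all genes, it was 1.26 under both scalings. This equality is built in, since a change of scaling moves the log2 folds of all genes by nearly the same amount. A bulk library does not tell apart a higher share of bound copies in each cell from more cells with bound copies.

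**Figure D1:**
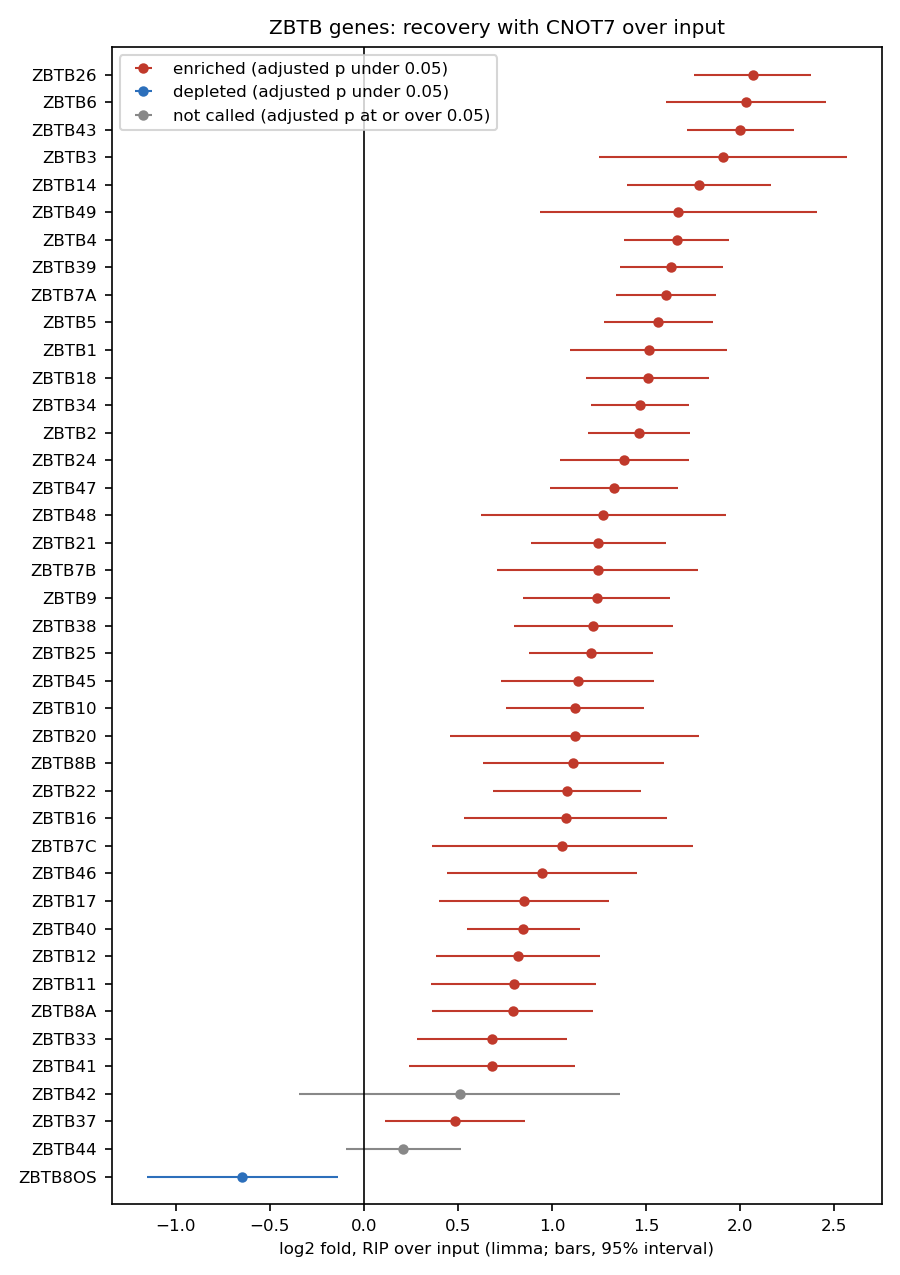
Log2 fold of RIP over input for the 41 tested ZBTB genes, in order of fold, from limma; points are estimates from 3 RIP libraries and 3 input columns, bars are 95% intervals, and colour gives the call. The 38 enriched members lie to the right of 0 with intervals that do not reach it, ZBTB42 and ZBTB44 have intervals that span 0, and ZBTB8OS lies at -0.65.

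The 42 members lie on 15 chromosomes, 10 of them on chromosome 1. Promoters from RefSeq (GRCh38.p14, 300 bases each) were matched by symbol for 36 members. They are shown for ZBTB26 and ZBTB43, the members with the largest folds that have an entry, and for ZBTB8OS, the depleted member. Each is written 5′ to 3′ along the gene's strand, with the CG dinucleotides in capitals, since the methyl-CpG binding members read this dinucleotide. The stretches of ZBTB26 and ZBTB8OS hold the start of the gene's span on its strand. That of ZBTB43 does not: it begins at 126804790, inside the gene, whose span starts at 126804072.
ZBTB26, chr9:122931463-122931762, minus strand: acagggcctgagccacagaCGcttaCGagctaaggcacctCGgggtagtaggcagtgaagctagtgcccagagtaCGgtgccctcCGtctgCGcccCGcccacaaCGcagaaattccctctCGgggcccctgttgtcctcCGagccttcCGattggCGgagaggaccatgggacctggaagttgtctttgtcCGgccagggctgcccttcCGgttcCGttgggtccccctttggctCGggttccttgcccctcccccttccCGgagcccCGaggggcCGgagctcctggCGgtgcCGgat
ZBTB43, chr9:126804790-126805089, plus strand: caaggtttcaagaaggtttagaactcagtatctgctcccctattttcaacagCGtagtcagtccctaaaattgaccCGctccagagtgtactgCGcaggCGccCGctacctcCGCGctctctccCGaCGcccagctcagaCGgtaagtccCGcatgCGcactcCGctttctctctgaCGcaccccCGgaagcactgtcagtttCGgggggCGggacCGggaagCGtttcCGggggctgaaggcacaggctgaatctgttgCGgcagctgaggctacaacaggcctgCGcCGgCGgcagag
ZBTB8OS, chr1:32650883-32651182, minus strand: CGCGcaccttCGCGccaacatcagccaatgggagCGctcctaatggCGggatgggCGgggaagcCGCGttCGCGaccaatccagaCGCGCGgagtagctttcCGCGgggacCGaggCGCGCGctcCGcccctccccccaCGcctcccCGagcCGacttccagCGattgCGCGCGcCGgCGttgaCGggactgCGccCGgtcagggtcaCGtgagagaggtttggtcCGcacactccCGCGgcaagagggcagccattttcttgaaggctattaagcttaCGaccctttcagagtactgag

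The promoter of ZBTB26 holds 21 CG dinucleotides, that of ZBTB43 24 and that of ZBTB8OS 38. ZBTB26 and ZBTB8OS had 2 promoter entries each. The first entry of every gene was used, here and in the values below. Over the 35 tested members with a promoter entry the median was 26 CG dinucleotides and 65.3% G+C, and 24 promoters (68.6%) held at least 20. Over 10887 tested protein-coding genes the values were close to these, with a median of 27, 65.7% G+C and 72.6% of promoters with at least 20. Across the 35 members, the log2 fold and the count of CG dinucleotides had a Pearson r of -0.10 and a Spearman rho of 0.03. For G+C the values were 0.0064 and 0.11. These describe genes measured in the same 6 libraries, and genes are not independent replicates.

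The 3 largest folds belonged to members that lie in pairs of neighbours on chromosome 9. ZBTB26 (ENSG00000171448, chr9:122915566-122931512) had normalized counts of 3173, 2943 and 3373 in RIP 1, 2 and 3 and of 778, 684 and 805 in the input columns. All RIP values lay far above all input values, the log2 fold was 2.07 (SE 0.14, n = 3 and 3), and limma's adjusted p was 1.02e-06. ZBTB6, whose gene ends 2242 bp before that of ZBTB26 (chr9:122908056-122913323), had 5160, 4349 and 3928 in RIP against 1173, 1385 and 795 in input. Its groups were as clearly apart, with a log2 fold of 2.03 (SE 0.20, limma adjusted p 7.19e-06).

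ZBTB43 (chr9:126804072-126838210) had 4233, 3913 and 3940 in RIP against 1081, 944 and 996 in input, a log2 fold of 2.0 (SE 0.13, limma adjusted p 8.01e-07). The next gene along, ZBTB34, starts 22428 bp further on (chr9:126860639-126885878) and had 6643, 7198 and 6527 against 2695, 2393 and 2293, a log2 fold of 1.47 (SE 0.12, limma adjusted p 2.41e-06). Both genes had narrow spreads within each group, and neither group of libraries came near the other.

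Other members among the 8 largest folds were ZBTB3, ZBTB14, ZBTB49, ZBTB4 and ZBTB39. ZBTB3 was one of the members with the fewest reads, with 632, 589 and 744 in RIP against 132, 154 and 255 in input and a log2 fold of 1.91 (SE 0.30, limma adjusted p 0.000272). ZBTB14, a repressor first known for binding the MYC promoter, had 1914, 2637 and 1961 against 573, 689 and 617. Its log2 fold was 1.78 (SE 0.17, limma adjusted p 8.38e-06), and RIP 2 was the highest library. ZBTB39 had 6138, 6186 and 6412 against 1809, 1962 and 2294, a log2 fold of 1.63 (SE 0.13, limma adjusted p 1.70e-06). In none of the 3 did a RIP library reach down to an input column.

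**Figure D2:**
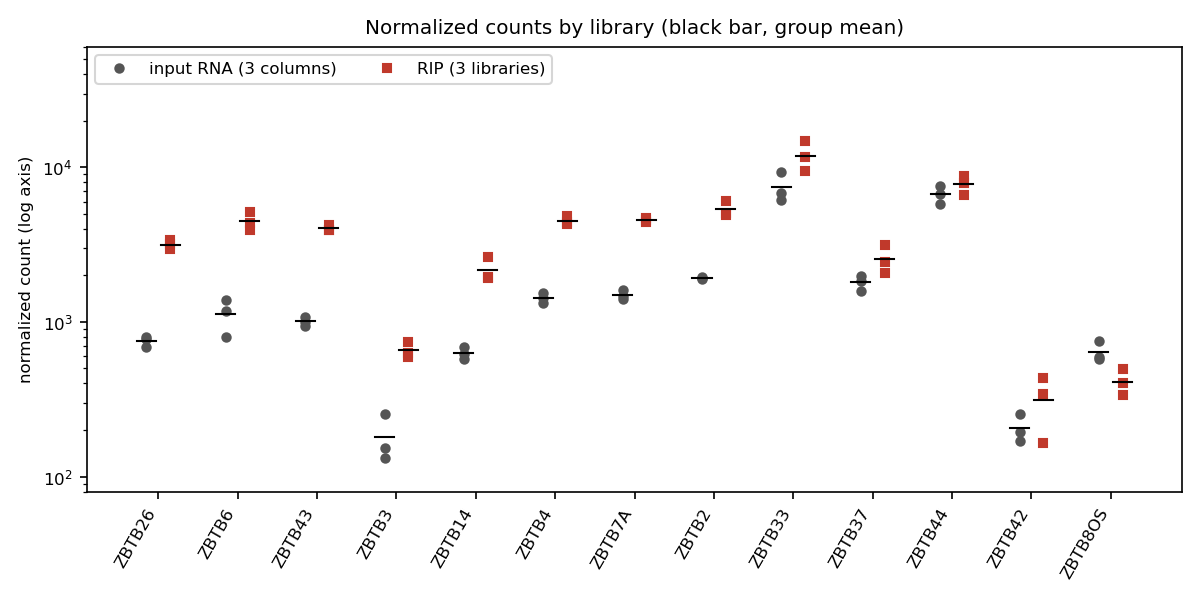
Normalized counts (log axis) of 13 ZBTB genes in each library; squares are the 3 RIP libraries, circles the 3 input columns, and the short bars are group means. For ZBTB26, ZBTB6 and ZBTB43 the RIP values lie about 4-fold above input, for ZBTB42 and ZBTB44 the groups overlap, and for ZBTB8OS all RIP values lie below all input values.

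The methyl-CpG binding members are ZBTB33 (Kaiso), ZBTB4 and ZBTB38, repressors that recognise methylated DNA through their zinc fingers. All 3 were enriched, with a median log2 fold of 1.22, and they differed in size. ZBTB4 had 4279, 4445 and 4816 in RIP against 1547, 1318 and 1419 in input, a log2 fold of 1.66 (SE 0.13, limma adjusted p 1.64e-06). ZBTB38 had 4378, 3022 and 3143 against 1859, 1534 and 1156, a log2 fold of 1.22 (SE 0.19, limma adjusted p 0.000285). ZBTB33 had 14692, 11620 and 9424 against 9338, 6784 and 6160, a log2 fold of 0.68 (SE 0.18, limma adjusted p 0.0093). Its lowest RIP library lay just above its highest input column. The interval of ZBTB33 (0.28 to 1.08) lay below that of ZBTB4 (1.38 to 1.94), and the difference between these genes was not tested.

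The p53 and CDKN1A group holds ZBTB2, ZBTB4, ZBTB5, ZBTB17 and ZBTB49, which act on p53 or on CDKN1A, the gene of the cell cycle inhibitor p21. All 5 were enriched, with a median log2 fold of 1.56. ZBTB49, unlike the repressors ZBTB2 and ZBTB5 an activator of CDKN1A, had 413, 349 and 576 in RIP against 170, 147 and 101 in input. Its log2 fold was 1.67 (SE 0.34, limma adjusted p 0.00155), with a wide interval from 0.94 to 2.40. ZBTB5 had 3274, 3723 and 3623 against 1261, 1096 and 1234, a log2 fold of 1.56 (SE 0.13, limma adjusted p 3.09e-06). ZBTB2 had 6022, 4931 and 5087 against 1938, 1947 and 1908, a log2 fold of 1.46 (SE 0.12, limma adjusted p 3.13e-06). The input columns of ZBTB2 were almost equal, and every RIP library was well above them. ZBTB17 (MIZ1), the partner through which MYC represses CDKN1A, was the lowest of the group with 748, 842 and 976 against 513, 399 and 514, a log2 fold of 0.85 (SE 0.21, limma adjusted p 0.00532).

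Regulators of blood and immune cells were the largest role group. It lists 10 members, of which 9 could be tested; all 9 were enriched, with log2 folds from 0.85 to 1.61 and a median of 1.21. ZBTB7A (LRF), which silences fetal globin genes and acts in B cell fate, had 4684, 4543 and 4429 in RIP against 1474, 1609 and 1408 in input. Its log2 fold was 1.61 (SE 0.12, limma adjusted p 1.57e-06), with tight groups far from each other. ZBTB7B (ThPOK), the factor that commits thymocytes to the CD4 lineage, had 2092, 1078 and 2224 against 701, 761 and 709. RIP 2 was less than the other RIP libraries by a wide margin but still above input, and the log2 fold was 1.24 (SE 0.25, limma adjusted p 0.00133).

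ZBTB1, needed for lymphoid development, had 2202, 2791 and 1776 in RIP against 913, 754 and 679 in input, a log2 fold of 1.51 (SE 0.19, limma adjusted p 5.41e-05). Its neighbour ZBTB25 on chromosome 14 overlaps it by 1498 bp and had 2898, 2781 and 2211 against 1211, 1143 and 1044, a log2 fold of 1.21 (SE 0.15, limma adjusted p 4.98e-05). ZBTB24, whose loss causes an immunodeficiency with centromeric instability, had 4513, 5244 and 3851 against 2026, 1486 and 1702, a log2 fold of 1.38 (SE 0.16, limma adjusted p 2.38e-05). In these 3 genes each RIP library exceeded each input column.

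ZBTB16 (PLZF), the factor of innate-like T cells, had 1111, 969 and 833 in RIP against 529, 319 and 571 in input, a log2 fold of 1.07 (SE 0.25, limma adjusted p 0.00367). ZBTB46, a marker of classical dendritic cells, had 814, 1215 and 843 against 463, 613 and 407, a log2 fold of 0.95 (SE 0.23, limma adjusted p 0.00535). Both were enriched with smaller margins between the groups than ZBTB7A. ZBTB32, a repressor of lymphocytes, was the member that could not be tested: it was at 0 in RIP 1, RIP 2 and 2 of the input columns, at 2.35 in RIP 3 and at 17.1 in 1 input column.

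The brain group was ZBTB18 and ZBTB20, repressors of cortical and hippocampal development. ZBTB18 had 11328, 9093 and 9077 in RIP against 4057, 3511 and 2853 in input, a log2 fold of 1.51 (SE 0.15, limma adjusted p 8.74e-06). ZBTB20, which also acts in plasma cells and liver, had 701, 844 and 421 against 346, 219 and 319, a log2 fold of 1.12 (SE 0.30, limma adjusted p 0.00986). Its lowest RIP library was RIP 3, and the group means differed by more than their spread.

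The telomere group was ZBTB10, ZBTB40 and ZBTB48 (TZAP), proteins reported to bind telomere repeats or variants of them; all 3 were enriched, with a median log2 fold of 1.12. ZBTB10 had 17256, 14545 and 11427 in RIP against 7959, 6289 and 5574 in input, with RIP 1 and input column 1 the highest of their groups. Its log2 fold was 1.12 (SE 0.17, limma adjusted p 0.000189). ZBTB40 had nearly equal RIP libraries, 2989, 2938 and 2944, against 1832, 1721 and 1408, a log2 fold of 0.85 (SE 0.14, limma adjusted p 0.000342). ZBTB48 had 370, 648 and 527 against 176, 250 and 201, a log2 fold of 1.27 (SE 0.30, limma adjusted p 0.00403).

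The remaining 21 members have no role in these groups; 19 were enriched, 2 did not pass, and the median log2 fold was 1.14. Beyond those already described, ZBTB47, ZBTB21, ZBTB9, ZBTB45, ZBTB8B, ZBTB22 and ZBTB7C were enriched at least 2-fold, with log2 folds from 1.33 down to 1.05. ZBTB12, ZBTB11, ZBTB8A, ZBTB41 and ZBTB37 were enriched with smaller log2 folds of 0.82, 0.80, 0.79, 0.68 and 0.48. ZBTB7C was the most uneven of the called members across the RIP libraries, at 345, 738 and 435 against 247, 195 and 255 in input. Its adjusted p of 0.0174 in limma rose to 0.0628 without input column 2, and that of ZBTB41 from 0.0163 to 0.0779. ZBTB41 had 4590, 2857 and 2557 in RIP against 2356, 1799 and 1920 in input, with RIP 1 the highest and no overlap.

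ZBTB37 was the enriched member with the smallest fold. It had 3144, 2065 and 2438 in RIP against 1997, 1837 and 1574 in input, so the lowest RIP library lay just above the highest input column. The log2 fold was 0.48 (SE 0.17) and limma's adjusted p was 0.0361. The call was lost without RIP 1 (log2 fold 0.32, adjusted p 0.14), without input column 2 (0.50, adjusted p 0.0882) and without input column 3 (0.39, adjusted p 0.131).

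ZBTB44 had 8734, 7907 and 6623 in RIP against 7581, 6715 and 5819 in input, and the groups overlapped. Its log2 fold of 0.21 (SE 0.14, limma adjusted p 0.255) had an interval from -0.10 to 0.51, which ends below 1, the fold that doubles a level. ZBTB42 had 340, 164 and 434 against 195, 169 and 255, and RIP 2 was below all input columns. Its log2 fold of 0.51 (SE 0.39, limma adjusted p 0.321) had a wide interval, from -0.34 to 1.36. Without RIP 2 it was 0.92, with a limma adjusted p of 0.0152.

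ZBTB8OS (chr1:32620820-32650932), the archease gene, was the depleted member. It had 337, 495 and 403 in RIP against 595, 578 and 752 in input, and every RIP library was below every input column. The log2 fold was -0.65 (SE 0.23) and limma's adjusted p was 0.0407. This call did not hold without RIP 1 (-0.51, adjusted p 0.133), RIP 3 (-0.64, adjusted p 0.0784) or input column 3 (-0.53, adjusted p 0.159). Without input column 1 or 2 the log2 fold was -0.70 and -0.72, no smaller than with all libraries, while the adjusted p was 0.0705 and 0.0653. Under total-read scaling the log2 fold was -0.15, with an adjusted p of 0.627. Its neighbours on chromosome 1, ZBTB8B and ZBTB8A, had log2 folds of 1.11 (SE 0.22) and 0.79 (SE 0.20). Without ZBTB8OS, 38 of the 40 tested BTB zinc finger members were enriched, 0 were depleted in limma, with no log2 fold below 0.21, and the median log2 fold was 1.23.

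The fold showed little relation to how much of the mRNA was present. Across 41 members, the log2 fold and the log2 mean of the input columns had a Pearson r of -0.11 and a Spearman rho of -0.04. Of 20 members with an input mean of at least 1000, 19 were enriched, with a median log2 fold of 1.31. Of 21 tested members below 1000, 19 were enriched and 1 depleted, with a median of 1.12. For the span of the gene on the genome, Pearson r was -0.23 and Spearman rho -0.37, a weak tendency of longer genes to smaller folds. All points share the same 6 libraries, and no test was made.

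The RIP libraries shared the highest places. RIP 1 was the highest RIP library for 17 members, RIP 2 for 11 and RIP 3 for 13. Among the input columns, column 1 was the highest for 23 members, with 8 and 10 for columns 2 and 3. The median coefficient of variation over members was 14.4% in RIP and 14.5% in input. Leaving out each library in turn left 35 to 39 members enriched, and 3121 to 3824 genes over the whole table.

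The 3 input libraries without a column of their own gave a second view of the input level. Their mean followed from the deposited mean over 9 libraries less the 6 columns. The log2 ratio of the input columns over these libraries had a median of -0.04 over the members, and 18 of 41 were higher in the columns. The log2 ratio of group means, on values with 1 added, was positive for 40 of 41 members both over the input columns (median 1.21) and over all 6 inputs (median 1.20). Single members moved more. ZBTB48 had a mean of 209 in the input columns and 430 in the other inputs, so its log2 ratio was 1.30 over the columns and 0.69 over all 6 inputs. ZBTB49 went from 1.67 to 1.10, while ZBTB42, at 206 in the columns and 97.6 in the others, went from 0.60 to 1.04. These values have no SD and no test, and whether doxycycline differs between these inputs is not given.

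Some members share their locus with other genes, and the labels do not give the strand setting of the counting, so reads of overlapping genes may not be told apart. The 12 tested members that overlap a protein-coding gene were all enriched, with a median log2 fold of 1.31. Of the 29 that overlap none, 26 were enriched and 1 depleted, with a median of 1.14. ZBTB37 overlaps the noncoding RNA gene GAS5 by 964 bp, and GAS5 had 1387, 872 and 1569 in RIP against 3972, 4485 and 4611 in input, a log2 fold of -1.81 (SE 0.20). ZBTB5 overlaps GRHPR (log2 fold -1.55, SE 0.19) by 1393 bp. ZBTB25 overlaps MTHFD1 (-1.08, SE 0.12) by 10920 bp, and ZBTB33 overlaps TMEM255A (-0.69, SE 0.18) by 6966 bp. In each of these cases the partner had the opposite direction to the ZBTB gene, and the part of such overlaps in the folds was not tested.

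The ZBTB genes were set beside other groups chosen by symbol. Of 436 tested ZNF genes, the wider family of zinc finger genes, 317 (72.7%) were enriched and 7 depleted, with a median log2 fold of 1.19. Of 29 tested KLHL genes, which have the BTB domain with Kelch repeats in place of zinc fingers, 17 (58.6%) were enriched and 1 depleted, with a median of 0.83. Over all 13367 tested protein-coding genes 26.0% were enriched and 25.3% depleted, with a median of -0.05. The ZBTB median was thus near that of the ZNF genes and above that of the KLHL genes, as a description with no test of the difference.

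**Figure D3:**
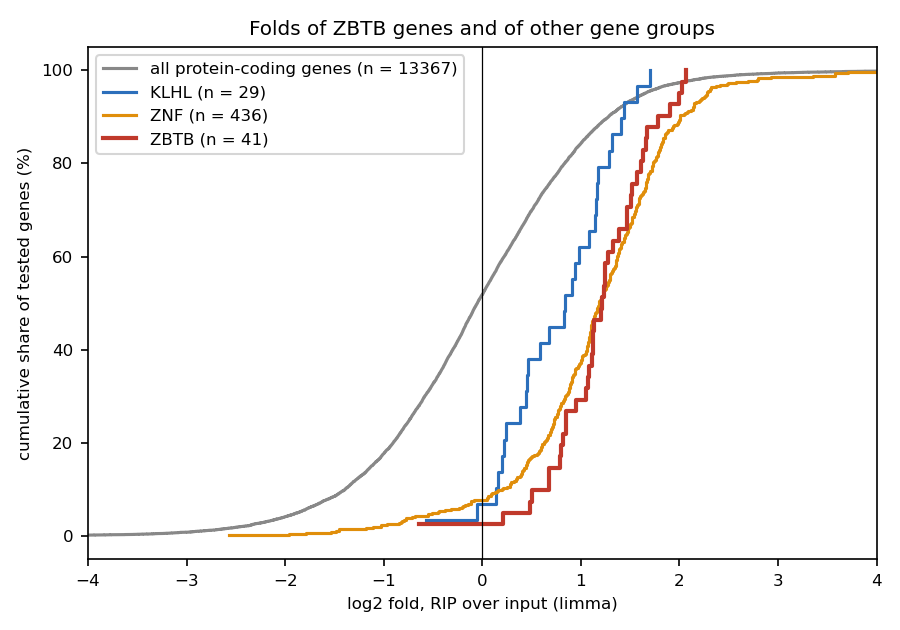
Cumulative share (%) of tested genes at or below each log2 fold of RIP over input, for ZBTB, ZNF, KLHL and all protein-coding genes; genes beyond the ends of the axis are not drawn. The medians lie at 1.22 for ZBTB, 1.19 for ZNF, 0.83 for KLHL and -0.05 for all protein-coding genes.

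BTB zinc finger genes that carry another symbol were enriched too. All 8 listed (BCL6, BCL6B, HIC1, HIC2, MYNN, ZNF131, PATZ1 and GZF1) were enriched at least 2-fold, with log2 folds from 1.06 to 2.05 and a median of 1.47. BCL6, the repressor of germinal centre B cells and the best known of them, is given by choice after its values were seen; it had 1137, 1529 and 1101 in RIP against 334, 352 and 262 in input, a log2 fold of 1.98 (SE 0.22, limma adjusted p 1.93e-05). The smallest p belonged to ZNF131, with 4029, 3900 and 3372 against 1529, 1220 and 1349 and a log2 fold of 1.46 (SE 0.14). PATZ1, GZF1 and MYNN, next by p, had log2 folds of 1.27, 1.28 and 1.48. In each of these 5 genes the groups did not overlap.

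The corepressors and partners of BTB zinc finger proteins held calls in both directions, as did protein-coding genes as a whole. Of 21 listed, 8 (38.1%) were enriched, 5 (23.8%) depleted and 8 did not pass, with a median log2 fold of 0.12, against 26.0% and 25.3% of tested protein-coding genes and their median of -0.05. MYC, which ZBTB17 binds, had 34660, 35106 and 37090 in RIP against 13076, 12226 and 13230 in input, a log2 fold of 1.47 (SE 0.11, limma adjusted p 1.49e-06). BCORL1, a corepressor related to the BCL6 partner BCOR, had a log2 fold of 0.91 (SE 0.11). The deacetylases HDAC1 and HDAC2 were depleted, at log2 folds of -1.10 (SE 0.12) and -0.98 (SE 0.11), with every RIP library below every input column. The other listed deacetylases went both ways: HDAC3 and HDAC5 were depleted, HDAC4 was enriched and HDAC7 did not pass. Under total-read scaling 11 of the 21 (52.4%) were enriched and 3 (14.3%) depleted, against 36.7% and 9.86% of 16783 genes tested, with HDAC1 and HDAC2 depleted at -0.61 and -0.49.

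**Figure D4:**
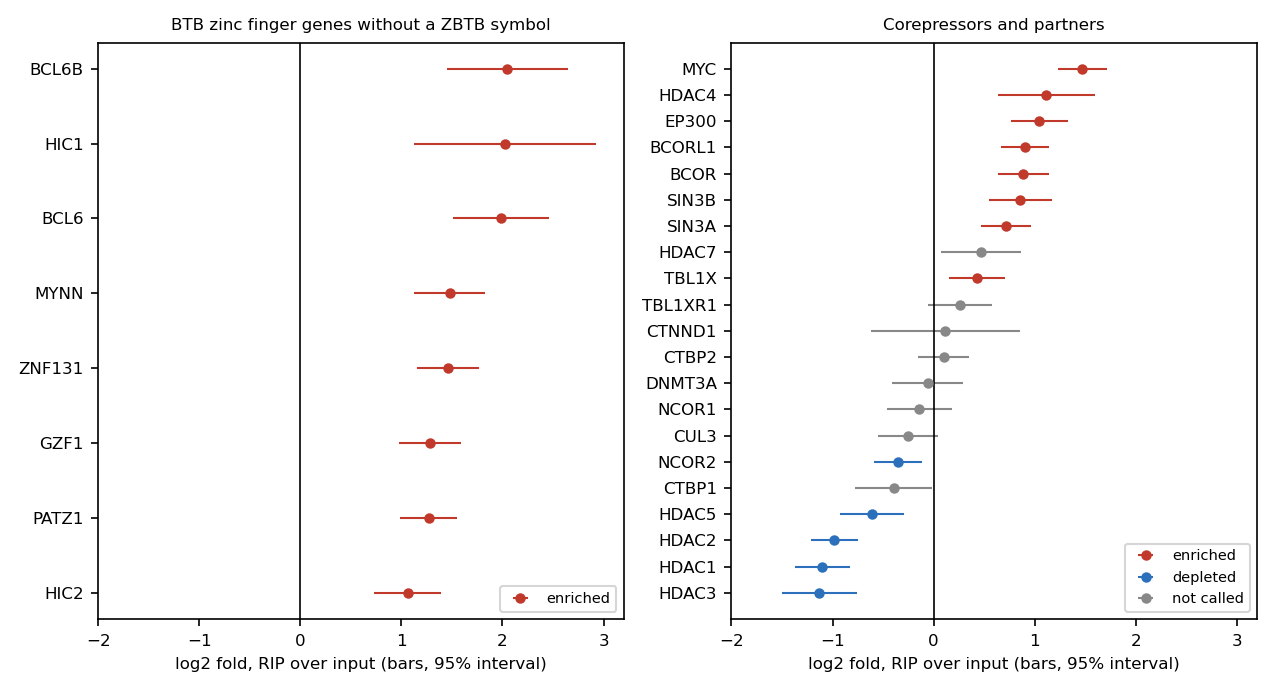
Log2 fold of RIP over input (limma; bars are 95% intervals) for the 8 BTB zinc finger genes without a ZBTB symbol, at left, and for 21 corepressors and partners, at right. All 8 genes at left lie at 1.06 or more, while those at right run from -1.13 to 1.47, with 5 depleted under the authors' size factors.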

How the data were processed

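RNA of HEK293T cells, after removal of ribosomal RNA, was sequenced from 1 end for 75 bp, per the labels' protocols. STAR, featureCounts, DESeq2 and the build GRCh38 are named, without versions, per the submitters' processing notes; annotation release and strand setting were not given in the sources used. The values deposited by the authors are a signal, gene counts divided by 1 size factor per library. Every value (100%) was a whole multiple of 1 read within 0.01. The log2 fold, its SE, the Wald score and the p-value in the authors' deposited table are the authors' own, and were used only to set beside the values computed here.

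Genes with a mean of at least 10 over the 6 columns (16765) were tested with limma 3.58.1 (lmFit and eBayes with trend, R 4.3.3) on log2(value + 1), which understates changes of low genes, with Benjamini-Hochberg adjustment over all of them and a threshold of 0.05. Intervals cover 95%. The scripts were tested on simulated data. Chi-square per degree of freedom between libraries of a group was 29.9 to 82.8, so none was counted as a copy of another. Intervals and the floor of 3 reads cover the spread or counting error of these libraries only, since PCR reads that carry no molecular identifiers are not independent.

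The members and all gene lists were chosen with earlier results of these data known. Every member may be named; values per library are given for the 8 largest folds, depleted members and members with a listed role. Those of ZBTB34, a neighbour of ZBTB43, and of members whose call changed in an alternative were added after their values were seen. Of the other lists the 4 genes with the smallest p have their own values in the text; BCL6 was added, and the remaining genes are named without values or drawn in a figure. Gene positions and promoters came from RefSeq (GRCh38.p14), and proteins were not analysed here. Alternatives covered pseudocounts, filters, scalings, edgeR 4.0.16, DESeq2 1.42.0 on the recovered reads, libraries left out and all 6 inputs.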

Additional observations from a re-analysis of the deposited data

How the results depend on the processing

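Of the 38 enriched members, 35 kept their call in all 16 alternatives with a test, 6 members in all changed their call in at least 1, and 0 changed direction. The 16 were pseudocounts of 0.5 and 8, no filter, a filter at a mean of 100, total-count scaling with and without mitochondrial and small RNA genes, edgeR, DESeq2, the authors' deposited table, the replicate block, and each of the 6 libraries left out. Leaving out each library gave 35 to 39 enriched and 0 to 1 depleted members, a median log2 fold of 1.13 to 1.28, and 3121 to 3824 enriched and 2881 to 3719 depleted genes over the whole table. Total-count scaling gave 0 depleted members, a median of 1.71, and 6155 enriched and 1655 depleted genes; ZBTB42 (1.0) and ZBTB44 (0.70) were then enriched. Without mitochondrial and small RNA genes in the total, 0 members were depleted and the median was 1.35. A stricter rule, not among the 16, asked for a 2-fold change as well: 29 members were enriched, 0 depleted, and 1904 genes were enriched and 1779 depleted. The fit with the replicate block gave 39 enriched members, ZBTB44 added (adjusted p 0.0432 in limma), 1 depleted, and 4053 enriched and 3925 depleted genes. Deviations of same-numbered columns correlated at 0.25, 0.0025 and 0.24. RIP 3 with input column 1 gave -0.26 and RIP 1 with input column 3 gave -0.23, while the remaining pairs lay between -0.029 and 0.026. Whether same-numbered columns share a culture is not stated in the labels, and the main fit did not pair them. The causes were not tested. With 3 libraries a group, members with few reads had the widest intervals: that of ZBTB42 ran from -0.34 to 1.36.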
